A study of Mus musculus with 12 samples.

Results

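Hearts of wild-type mice that received a VEGF-B virus were compared directly with hearts of mice that had lost the receptor VEGFR1 from their endothelium and received a scramble virus. All probes of the array entered, and the arrays were chosen by their titles alone. The comparison used 5 of the 12 arrays of the series, 1 per heart. The group WT_VEGFB held 2 wild-type hearts with an adeno-associated virus (AAV) coding for VEGF-B. The group VEGFR1del_Scramble held 3 hearts of Cdh5-Cre-ERT2; Flt1 flox/flox mice given tamoxifen, with AAV-Scramble. The group WT_Scramble, 3 wild-type hearts with AAV-Scramble, served as the common control in the values set side by side below. All mice were adult C57Bl/6J males, every group carried an AAV, and VEGF-B virus was given intraperitoneally. Age in weeks, virus dose, the promoter in the virus, the time between injection and dissection, and whether the wild-type mice had Cre or tamoxifen are not given in the sources used here. The Cdh5 promoter confines Cre to endothelial cells, so other cells of a deleted heart keep an intact Flt1 gene. RNA came from whole heart, in which fewer cells of a type and less RNA per cell cannot be told apart.

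VEGFR1, encoded by Flt1, is a receptor for placental growth factor as well as for VEGF-A and VEGF-B, and signals weakly through its kinase. It holds VEGF-A back from VEGFR2 (encoded by Kdr), the receptor that drives endothelial survival, proliferation and sprouting. VEGF-B does not bind VEGFR2. A surplus of VEGF-B can occupy VEGFR1, and deletion of Flt1 removes it, so that both are ways of leaving more VEGF-A to VEGFR2. They differ in that the first leaves a ligand-bound receptor in place and the second leaves none on the endothelium. What differs between the hearts was the question of the comparison.

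For genes that the results turn on, the 250 bases before the annotated start are shown, from RefSeq on the build GRCm38.p6, 5′ to 3′ on the strand of the gene. Flt1 (chr5:147726012-147726261, minus strand) is the deleted gene. Esm1 (chr13:113209409-113209658, plus strand) had the largest rise of the 7 genes that rose in VEGFR1del_Scramble over WT_Scramble. Cxcr4 (chr1:128592300-128592549, minus strand) and Gimap6 (chr6:48708245-48708494, minus strand) had a difference near 0 between WT_VEGFB and VEGFR1del_Scramble.
Flt1: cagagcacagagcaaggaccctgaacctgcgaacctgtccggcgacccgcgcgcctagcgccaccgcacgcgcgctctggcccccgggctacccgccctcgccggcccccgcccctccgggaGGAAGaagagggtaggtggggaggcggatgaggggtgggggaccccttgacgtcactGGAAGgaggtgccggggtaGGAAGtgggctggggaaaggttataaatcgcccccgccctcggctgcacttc
Esm1: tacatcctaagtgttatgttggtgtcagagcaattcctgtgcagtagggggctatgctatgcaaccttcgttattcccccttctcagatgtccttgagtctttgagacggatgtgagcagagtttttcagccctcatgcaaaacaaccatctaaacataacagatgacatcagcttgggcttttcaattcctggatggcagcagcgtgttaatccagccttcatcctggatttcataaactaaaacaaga
Cxcr4: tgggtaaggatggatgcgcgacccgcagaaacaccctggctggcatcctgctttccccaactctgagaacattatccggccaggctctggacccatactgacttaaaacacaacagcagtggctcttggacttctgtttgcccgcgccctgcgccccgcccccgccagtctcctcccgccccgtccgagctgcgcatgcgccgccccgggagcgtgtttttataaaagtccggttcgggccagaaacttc
Gimap6: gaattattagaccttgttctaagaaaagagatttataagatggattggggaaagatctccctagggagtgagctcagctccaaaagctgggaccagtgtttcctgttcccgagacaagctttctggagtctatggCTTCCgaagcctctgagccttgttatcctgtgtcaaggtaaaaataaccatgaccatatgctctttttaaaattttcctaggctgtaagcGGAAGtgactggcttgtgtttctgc
Capitals mark GGAAG and its reverse complement CTTCC, the core that factors of the ETS family, the family of Erg and Fli1, prefer. The search covered both strands, and the 2 strings cannot overlap each other. The window of Flt1 held 3 matches and that of Gimap6 held 2, while those of Esm1 and Cxcr4 held 0. A match was present in 64.1% of the 32851 windows of the table, so it is a description of these letters and sets no gene apart.

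Flt1 was read first, because it tests the labels. Its probe of highest signal, ILMN_1227926, gave log2 signals of 11.51 and 11.22 in WT_VEGFB, against 8.19, 8.46 and 11.56 in VEGFR1del_Scramble replicates 1, 2 and 3, and 10.79, 10.90 and 10.91 in WT_Scramble. Replicates 1 and 2 of VEGFR1del_Scramble lay below all other arrays named here. The library labelled VEGFR1del_Scramble replicate 3 lay above all of them, so its Flt1 signal goes against its label. A second Flt1 probe, ILMN_2732721, gave 6.03 and 5.79 in WT_VEGFB, against 4.36, 4.69 and 6.25 in VEGFR1del_Scramble and 5.41, 5.32 and 5.58 in WT_Scramble. It was detected on 2 of 2 WT_VEGFB arrays, on 1 of 3 VEGFR1del_Scramble arrays and on 3 of 3 WT_Scramble arrays, with the doubted library again the highest. Where the probes lie relative to the floxed part of the gene is not given in the sources used here. The comparison was therefore run with the doubted library (12 arrays in the fit) and without it (11 arrays, normalized and filtered anew), and a value with no such mention is that of 12 arrays.

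The authors' normalized table showed that the arrays had been normalized in separate sets, and the sets matter for this comparison. VEGFR1del_Scramble replicates 1 and 2 fell in set 1 with the 3 WT_Scramble arrays, and VEGFR1del_Scramble replicate 3 fell in set 2 with the 2 WT_VEGFB arrays. What a set stands for in the laboratory is not stated. If the doubted library is left out, each compared group lay in 1 set of its own, so that set and group cannot be told apart. With it, set 2 alone holds a comparison, of 2 WT_VEGFB arrays against the 1 doubted array, which is called the comparison within set 2 below. Its spread is pooled over all groups, and the single array is taken to vary as the rest do.

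Depth was alike over the 5 arrays. The median signal per array, before any correction, lay between 102.1 and 111.5, and 16685 to 18210 probes were detected (detection p under 0.05). Of 12 ventricular cardiomyocyte markers with a probe, 12 were detected on all 5 arrays, as were 21 of 24 pan-endothelial markers, while Clec14a, Ecscr and Erg were detected on none. None of 5 lung epithelium, 4 mesothelium or 6 adipocyte markers was detected on any of the 5. The median of the cardiomyocyte markers, relative to the WT_Scramble mean, was -0.04 and -0.03 in WT_VEGFB, against 0.00, 0.06 and -0.03 in VEGFR1del_Scramble and -0.01, -0.01 and 0.01 in WT_Scramble (log2).

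With all arrays, no gene passed the test between WT_VEGFB and VEGFR1del_Scramble. Of 14240 genes tested, 0 (0%) passed an adjusted p under 0.05 in limma's moderated test with Benjamini-Hochberg adjustment, and the smallest adjusted p was 0.923. At an unadjusted p under 0.05 there were 744 genes, or 5.22%, of which 372 (2.61%) were higher and 372 lower in WT_VEGFB. The total share is close to the threshold itself. Values were fully separated between the groups for 2830 genes, or 19.9%. The difference was above 0 for 50.5% of genes, or 50.3% without the doubted library and 49.7% within set 2. The difference, WT_VEGFB minus VEGFR1del_Scramble, had a median over genes of 0.00, and its 5th and 95th percentiles were -0.29 and 0.31 (log2). A p that misses the threshold does not show that the hearts were alike, and the intervals give the bound. The 95% confidence interval of the difference lay within 2-fold in both directions for 13954 genes (98%) and within 1.5-fold for 10804 (75.9%). In simulated arrays of these group sizes, with independent noise and no sets, the same calls recovered 85.1% of genes changed by 1 on the log2 scale and 16.4% of those changed by 0.5. The simulation held no library at odds with its label, so these shares do not carry over to the real arrays.

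Array by array, the hearts of the compared groups lay about as far apart as hearts of 1 group. The median absolute difference over genes was 0.151 between the WT_VEGFB arrays. Between WT_VEGFB and VEGFR1del_Scramble arrays it ran from 0.155 to 0.177, and the shortest of these distances, 0.155 and 0.160, were those of the doubted library. Among VEGFR1del_Scramble arrays it was 0.164 between replicates 1 and 2, against 0.181 and 0.187 between these and the doubted library. The doubted library thus stood nearer to both WT_VEGFB arrays than to either array that shares its label. Distances to WT_Scramble ran from 0.182 to 0.210 for WT_VEGFB and from 0.160 to 0.212 for VEGFR1del_Scramble. VEGFR1del_Scramble replicate 1 lay 0.160 and 0.166 from WT_Scramble replicates 1 and 2, against 0.163 and 0.177 from the WT_VEGFB arrays. These distances thus do not show that the manipulations resemble each other.

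**Figure D1:**
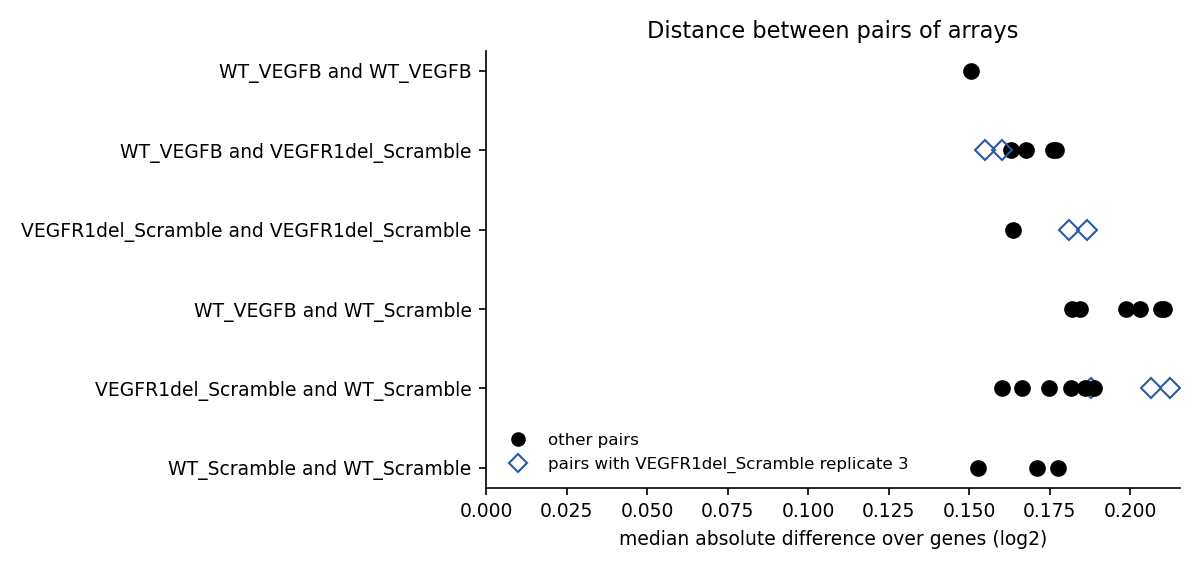
Median absolute log2 difference over 14240 genes (x axis) for each pair of arrays, by the groups the pair joins (y axis); open diamonds are pairs with the library labelled VEGFR1del_Scramble replicate 3. The diamonds of the second row, 0.155 and 0.160, lie left of the diamonds of the third, 0.181 and 0.187.

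Its position was also seen gene by gene. Among the 1104 genes that differed between WT_VEGFB and VEGFR1del_Scramble replicates 1 and 2 at an unadjusted p under 0.05, the doubted library lay nearer the WT_VEGFB mean for 741, or 67.1%, against 56.7% over all genes. The same reading gave 47.8%, against 47.8% over all genes, when replicate 1 was left out and read in its place. It gave 49.7%, against 49.2%, for replicate 2. The doubted library shares set 2 with WT_VEGFB, and the 1104 genes were chosen between set 2 and set 1 arrays. A shared set and a wrong label therefore cannot be told apart by this reading or by the distances. The readings of replicates 1 and 2 mix the sets and are no control for that.

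Without the doubted library, 2 of 14116 genes (0.0142%) passed the adjusted threshold. Flt1 was 8.22-fold higher in WT_VEGFB than in VEGFR1del_Scramble (log2 difference 3.04, SE 0.19, n = 2 each, limma adjusted p = 1.15e-05), which is the targeted gene itself. With all arrays the Flt1 difference was 1.96 with a 95% confidence interval of 0.48 to 3.45 and did not pass (limma adjusted p = 0.927), and within set 2 it was -0.19. The other call was a probe with no gene symbol in the reference table, ILMN_2476405. Its log2 signal was 4.50 and 4.70 in WT_VEGFB, against 8.78, 8.94 and 4.47 in VEGFR1del_Scramble and 4.51, 4.74 and 4.74 in WT_Scramble. It was detected on the same 2 arrays on which the Flt1 signal was low, and on none of the other 6. With that library left out it was at least 16.5-fold lower in WT_VEGFB, where the probe was not above background (limma adjusted p = 6.31e-07). Within set 2 its difference was 0.13. In the 4 hearts of the series with both the deletion and VEGF-B virus (VEGFR1del_VEGFB) it was detected on 4 of 4 arrays, at 9.54, 9.63, 9.50 and 8.99, where Flt1 stood at 9.00, 9.36, 8.93 and 9.47. The probe was thus detected on the 6 arrays with low Flt1 and, of the deleted hearts, was undetected in the doubted library. At an unadjusted p under 0.05 there were 1092 genes, or 7.74%, 623 higher and 469 lower, and the groups did not overlap for 5530, or 39.2%. The confidence interval lay within 2-fold for 13593 genes (96.3%) and within 1.5-fold for 9242 (65.5%).

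The ligands and receptors of the VEGF family, all 10 of which were tested, had differences from -0.28 (Flt4) to 0.36 (Vegfd) with all arrays, apart from Flt1. Vegfb, whose coding sequence the virus carries, gave 12.71 and 12.79 in WT_VEGFB, against 12.74, 12.69 and 12.68 in VEGFR1del_Scramble and 12.72, 12.90 and 12.74 in WT_Scramble. These groups overlap, and the difference was 0.05 (95% confidence interval -0.20 to 0.29), 0.04 without the doubted library and 0.07 within set 2. No higher Vegfb signal was therefore read in WT_VEGFB. Whether the probe matches the virus's transcript is not given in the sources used here. Vegfa, the ligand that both manipulations would release, gave 10.49 and 10.78 in WT_VEGFB, against 10.71, 10.14 and 10.76 in VEGFR1del_Scramble and 10.97, 10.91 and 10.69 in WT_Scramble, with a difference of 0.10 (-0.32 to 0.52), 0.21 without the doubted library and -0.12 within set 2. A dimmer Vegfa probe, ILMN_3121255, was detected on all of these arrays. It gave 7.72 and 8.18 in WT_VEGFB, against 8.23, 8.26 and 8.40 in VEGFR1del_Scramble and 8.37, 8.18 and 8.64 in WT_Scramble. Its WT_VEGFB values lay below those of VEGFR1del_Scramble, opposite to the lean of the brighter probe with all arrays. Vegfc, a ligand of VEGFR3, differed by 0.18 (-0.39 to 0.74), by 0.36 without the doubted library and by -0.18 within set 2. Pgf, placental growth factor, differed by 0.06 (-0.38 to 0.50; 0.06 and 0.07 in the other readings), and it was not detected on any VEGFR1del_Scramble array.

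Among the receptors, Nrp1 encodes neuropilin-1, a co-receptor of VEGFR2. It gave 11.86 and 11.86 in WT_VEGFB, against 11.51, 11.35 and 11.78 in VEGFR1del_Scramble and 11.26, 11.31 and 11.36 in WT_Scramble. Both WT_VEGFB arrays lay above all others, the doubted library next to them. The difference was 0.31 (0.04 to 0.59, limma adjusted p = 0.936), or 0.43 without the doubted library and 0.08 within set 2. Against WT_Scramble it rose by 0.55 in WT_VEGFB (limma adjusted p = 0.0429) and differed by 0.24 in VEGFR1del_Scramble (0.457). Vegfd, another ligand of VEGFR3, gave 6.58 and 6.60 in WT_VEGFB, against 5.91, 5.81 and 6.98 in VEGFR1del_Scramble. Its difference was 0.36 with all arrays, 0.73 without the doubted library and -0.39 within set 2, none of which passed the adjusted threshold. Kdr differed by -0.05 (-0.40 to 0.30), 0.06 without the doubted library and -0.28 within set 2, on a probe that was detected on 1 of 2, 1 of 3 and 1 of 3 arrays of WT_VEGFB, VEGFR1del_Scramble and WT_Scramble, so that VEGFR2 itself is hardly read here. Flt4 (VEGFR3) differed by -0.28 (-0.63 to 0.07), -0.17 and -0.49 in the same order, and Nrp2 by 0.00 (-0.41 to 0.41), -0.11 and 0.22, both near background.

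Against the common control, the manipulations gave unequal numbers of calls. In WT_VEGFB, 284 genes (1.99%) passed against WT_Scramble, of which 249 (1.75%) rose. In VEGFR1del_Scramble, 8 genes (0.0562%) passed, 7 of them (0.0492%) as higher. Of these, Esm1, Ccn5, Ssu2, Cxcr4, Gimap6, Kcnj8 and Vtn rose and Angptl4 fell. The comparisons share the WT_Scramble arrays, and a gene that passes in one and not in the other is not thereby shown to differ, which is what the direct comparison tests. All WT_VEGFB arrays lay in set 2 and all WT_Scramble arrays in set 1. In every difference between these groups, set and virus therefore cannot be told apart. VEGFR1del_Scramble replicates 1 and 2 shared set 1 with the control, so the counts do not rank the manipulations. The count for WT_VEGFB rested on both of its arrays, since it was 12 without replicate 1 and 4 without replicate 2. With the normalization set as a block it was 3 (Esm1, Flt1 and ILMN_2476405), and that for VEGFR1del_Scramble 5. Only the doubted library links sets 1 and 2. The blocked value of WT_VEGFB is therefore its difference from that library plus the difference of VEGFR1del_Scramble replicates 1 and 2 from WT_Scramble. Its calls of Flt1 and ILMN_2476405 thus carry the deletion, and the count of 3 is no separate check on WT_VEGFB. The count of 8 for VEGFR1del_Scramble also moved with the processing, to 97 without background correction, 107 with an offset of 50, 95 on the authors' table and 194 with a variance trend, where WT_VEGFB had 450, 439, 547 and 491. On 11 arrays the counts were 397 (2.81%) and 9 (0.0638%). The count for VEGFR1del_Scramble was 14 without its replicate 1 and 21 without its replicate 2.

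Of the 8 genes that passed in VEGFR1del_Scramble, 3 leaned higher in WT_VEGFB in the direct comparison. All 8 were chosen by their VEGFR1del_Scramble values, those of the doubted library among them, and the same values enter the direct difference. The direct differences of these genes are therefore not independent of the choice. Esm1, a secreted proteoglycan (endocan) made by endothelial tip cells, gave 8.70 and 8.75 in WT_VEGFB, against 8.07, 7.75 and 8.36 in VEGFR1del_Scramble and 6.05, 5.98 and 5.67 in WT_Scramble. The 3 groups do not overlap, and the doubted library is the VEGFR1del_Scramble array nearest WT_VEGFB. It rose 7.08-fold in WT_VEGFB (limma adjusted p = 0.000156) and 4.46-fold in VEGFR1del_Scramble (limma adjusted p = 0.00103). The direct difference was 0.67 (0.18 to 1.15, limma adjusted p = 0.927), or 1.59-fold, with 0.82 without the doubted library and 0.37 (-0.25 to 0.98) within set 2. Ccn5, a matricellular protein of the CCN family, gave 9.95 and 9.76 in WT_VEGFB, against 8.83, 9.26 and 9.80 in VEGFR1del_Scramble and 7.88, 7.85 and 7.99 in WT_Scramble. The compared groups overlap through the doubted library. Its direct difference was 0.56 (0.11 to 1.00), or 0.81 without that library and 0.05 within set 2. Ssu2 gave 7.88 and 7.76 in WT_VEGFB, against 7.16, 7.16 and 7.78 in VEGFR1del_Scramble and 5.78, 5.87 and 6.25 in WT_Scramble, with the same overlap. Its direct difference was 0.45 (0.03 to 0.87), or 0.66 and 0.04.

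The other 5 had direct differences near 0. Cxcr4, the chemokine receptor of CXCL12 and a tip cell gene, gave 6.46 and 6.67 in WT_VEGFB, against 6.86, 6.52 and 6.31 in VEGFR1del_Scramble and 5.23, 5.34 and 5.12 in WT_Scramble. It rose 2.53-fold and 2.52-fold over the control, and the direct difference was 0.01 (-0.37 to 0.38). That difference was -0.12 without the doubted library and 0.26 within set 2. Gimap6, a GTPase of the Gimap family, gave 9.08 and 9.01 in WT_VEGFB, against 8.85, 9.01 and 9.17 in VEGFR1del_Scramble and 8.17, 8.04 and 8.23 in WT_Scramble. Its direct difference was 0.04 (-0.25 to 0.33). Kcnj8, a subunit of an ATP-sensitive potassium channel of mural cells, differed by 0.05 (-0.24 to 0.33), and Vtn, vitronectin, by -0.02 (-0.29 to 0.25). The intervals of these 3 genes together span -0.29 to 0.33. Angptl4, a secreted inhibitor of lipoprotein lipase, gave 7.96 and 7.33 in WT_VEGFB, against 7.71, 7.77 and 7.54 in VEGFR1del_Scramble and 9.54, 10.53 and 9.24 in WT_Scramble. It fell 4.35-fold in WT_VEGFB and 4.26-fold in VEGFR1del_Scramble, while the direct difference was -0.03 with a wide interval of -0.76 to 0.70. On 11 arrays, Gimap6, Kcnj8, Vtn and Angptl4 no longer passed in VEGFR1del_Scramble (limma adjusted p = 0.0701, 0.0782, 0.12 and 0.0833), and their direct differences were 0.12, 0.08, 0.03 and -0.10.

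**Figure D2:**
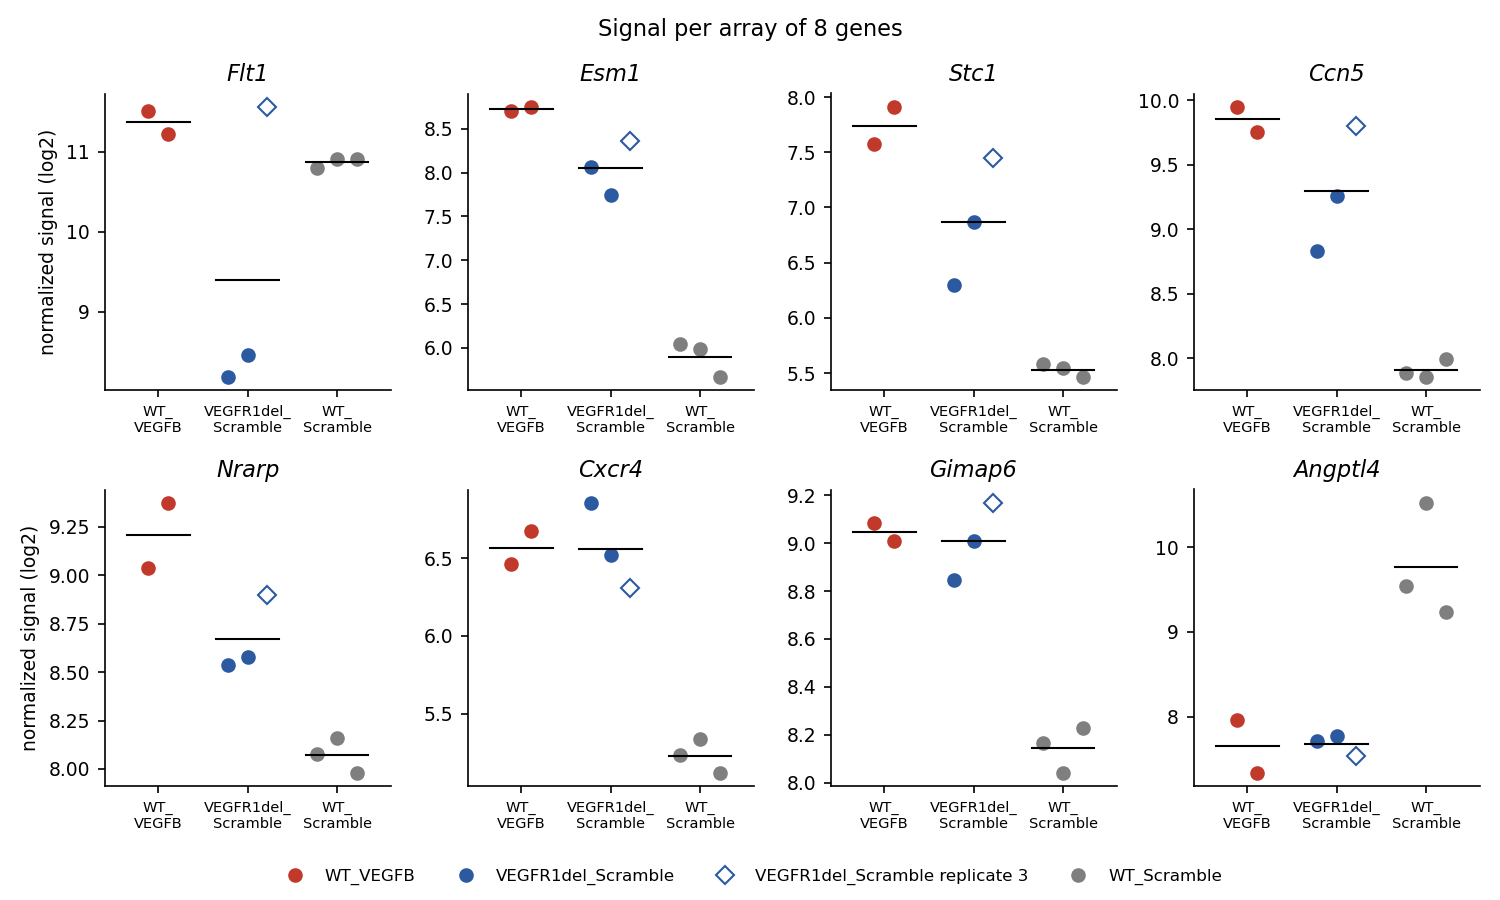
Normalized log2 signal (y axis) of 8 genes on each array of WT_VEGFB, VEGFR1del_Scramble and WT_Scramble; bars are group means over 2, 3 and 3 arrays, and the open diamond is the library labelled VEGFR1del_Scramble replicate 3. For Flt1 the diamond, 11.56, lies above all other points, and for Esm1, Stc1, Ccn5 and Nrarp it is the VEGFR1del_Scramble array nearest WT_VEGFB.

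**Figure D3:**
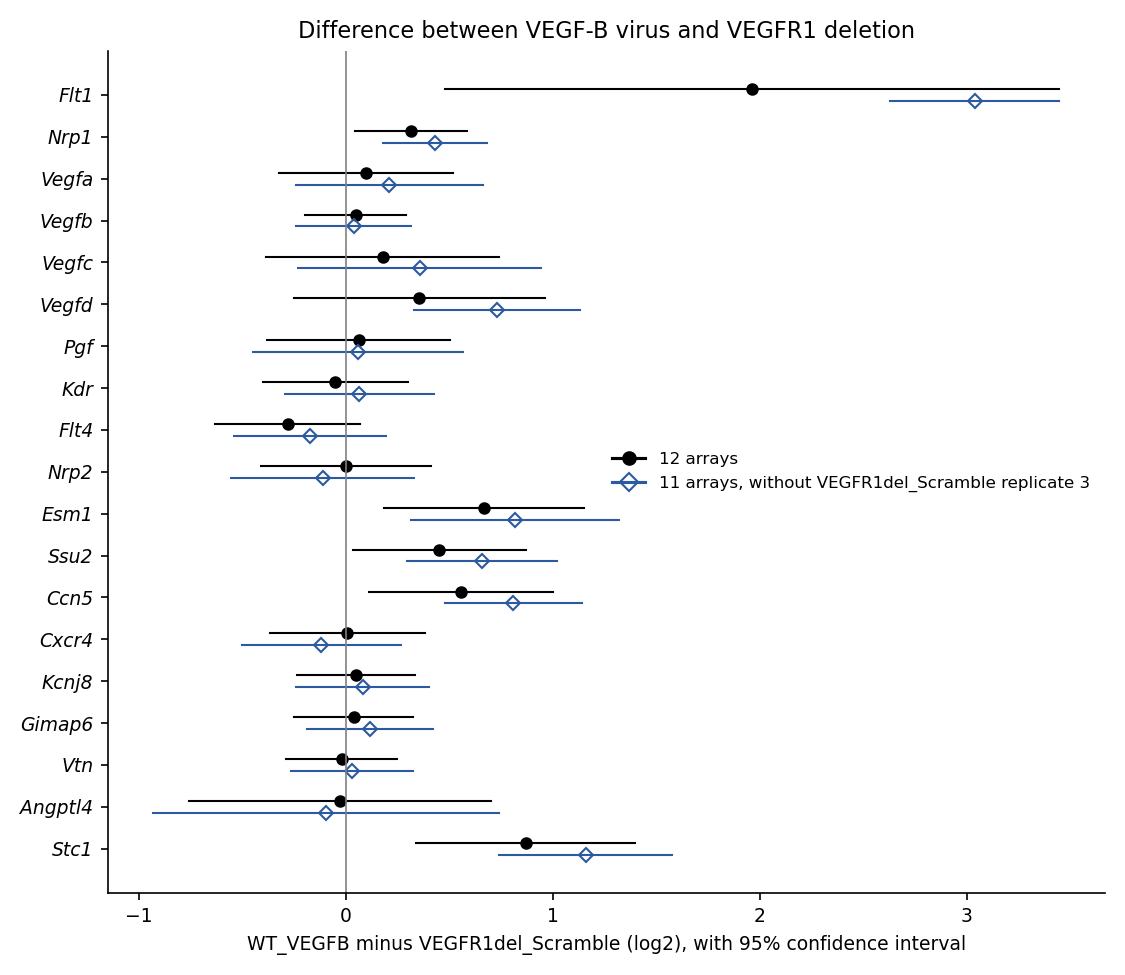
Difference WT_VEGFB minus VEGFR1del_Scramble in log2 (x axis) with its 95% confidence interval for the VEGF family, the 8 genes that passed in VEGFR1del_Scramble against WT_Scramble, and Stc1; filled circles use 12 arrays and open diamonds 11. The interval of Flt1 spans 0.48 to 3.45 with all arrays and 2.63 to 3.45 without the doubted library, and those of Cxcr4, Kcnj8, Gimap6, Vtn and Angptl4 span 0 in both.

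In what follows a list is described by its counts and its median beside those of all genes. Scaling the arrays to a common median in place of quantile normalization moved the median of all genes to 0.19, and relative to that shift 41 of the 43 list medians kept their sign, the exceptions being T and NK cell markers and atrial markers. With the shift left in, 32 of 43 moved by at least the SD of the list's level between replicates, and 10 changed sign. With the set as a block 23 moved and 22 changed sign. Without WT_VEGFB replicate 1 these counts were 16 and 6, and without its replicate 2 they were 9 and 7. Array weights moved 0.

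Genes of endothelial sprouting leaned higher in WT_VEGFB, and did so against VEGFR1del_Scramble replicates 1 and 2 rather than against the doubted library. Of 19 tip cell and sprouting genes tested, 17 had a difference above 0, with a median of 0.27 (0.00 over all genes), and 3 reached an unadjusted p under 0.05 with a higher value, against 2.61% of all genes. None passed the adjusted threshold. Without the doubted library the median was 0.50, and 13 of 19 reached that p, against 4.41% of all genes. Within set 2 the median was -0.04, with 7 of 19 above 0. Relative to the WT_Scramble mean, the list's median was 0.83 and 1.00 in WT_VEGFB, against 0.51, 0.44 and 0.98 in VEGFR1del_Scramble. Only the doubted library thus reached the WT_VEGFB range. Against WT_Scramble, 12 of the 19 rose in WT_VEGFB (1.75% of all genes) and 2, Esm1 and Cxcr4, in VEGFR1del_Scramble (0.0492% of all genes). In the count for WT_VEGFB, set and virus cannot be told apart, as given above. With the normalization set as a block, 1 tip cell gene, Esm1, passed in WT_VEGFB, and Esm1 and Cxcr4 in VEGFR1del_Scramble. The blocked reading of WT_VEGFB passes through the doubted library, as given above, and so is no separate check on WT_VEGFB.

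Stc1, which encodes the secreted glycoprotein stanniocalcin-1, had the largest difference of the list. It gave 7.57 and 7.91 in WT_VEGFB, against 6.30, 6.87 and 7.45 in VEGFR1del_Scramble and 5.58, 5.54 and 5.46 in WT_Scramble. The 3 groups do not overlap. The direct difference was 0.87 (0.34 to 1.40, limma adjusted p = 0.923), 1.16 without the doubted library (limma adjusted p = 0.199) and 0.29 within set 2. It passed without that library when the arrays were scaled to a common median, with a variance trend in eBayes, or on the authors' table. Over the control it rose 4.64-fold in WT_VEGFB (limma adjusted p = 0.00199), and its value in VEGFR1del_Scramble was 2.54-fold that of the control (0.0521). Mcam, the adhesion molecule CD146, gave 9.06 and 9.37 in WT_VEGFB, against 8.67, 8.43 and 8.98 in VEGFR1del_Scramble, a difference of 0.52 (0.66 without the doubted library, 0.23 within set 2). Nid2, a basement membrane linker, differed by 0.37, 0.66 and -0.19 in the same order. Trp53i11 gave 7.04 and 7.28 in WT_VEGFB, against 6.51, 6.56 and 7.60 in VEGFR1del_Scramble, so that its difference of 0.27 became 0.62 without the doubted library and -0.45 within set 2.

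The Notch pathway, by which a tip cell holds its neighbours in the stalk state, leaned the same way. Of 13 members tested, 11 had a difference above 0 (median 0.23), 3 of them at an unadjusted p under 0.05 (2.61% of all genes). The median was 0.30 without the doubted library, with 6 higher at that p (4.41% of all genes), and 0.06 within set 2. Nrarp, a target and feedback regulator of Notch, gave 9.04 and 9.37 in WT_VEGFB, against 8.53, 8.58 and 8.90 in VEGFR1del_Scramble and 8.08, 8.16 and 7.98 in WT_Scramble. These groups do not overlap, and the direct difference was 0.54 (0.21 to 0.87, limma adjusted p = 0.923), with 0.65 without the doubted library and 0.31 within set 2. Jag2, a Notch ligand, gave 6.19 and 6.23 in WT_VEGFB, against 5.60, 5.67 and 5.90 in VEGFR1del_Scramble, and differed by 0.49, 0.58 and 0.31. Hes1, a transcriptional repressor and Notch target, gave 8.91 and 8.97 in WT_VEGFB, against 8.79, 8.53 and 8.36 in VEGFR1del_Scramble. It differed by 0.38, 0.28 and 0.57, the last with an interval of 0.14 to 1.01. Hey1 and Heyl, related targets, differed by 0.48 and 0.42 with all arrays and by 0.12 and 0.11 within set 2.

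Endothelial cell markers as a class showed a smaller lean. The 21 pan-endothelial markers tested had a median difference of 0.13, 17 of them above 0 and 2 higher at an unadjusted p under 0.05 (2.61% of all genes). The median was 0.24 without the doubted library, with 7 higher at that p (4.41% of all genes), and -0.05 within set 2, with 4 of 21 above 0. Their level relative to WT_Scramble was 0.72 and 0.61 in WT_VEGFB, against 0.30, 0.44 and 0.69 in VEGFR1del_Scramble. Sox17, an arterial transcription factor, gave 8.76 and 8.41 in WT_VEGFB, against 7.72, 7.89 and 8.19 in VEGFR1del_Scramble, with differences of 0.65, 0.78 and 0.40. Nos3, endothelial nitric oxide synthase, gave 9.20 and 9.34 in WT_VEGFB, against 8.68, 8.74 and 9.40 in VEGFR1del_Scramble, with differences of 0.33, 0.56 and -0.12. The 10 heart capillary markers had a median of 0.06, 0.13 without the doubted library and -0.12 within set 2. The 9 arterial markers had 0.12, 0.17 and -0.02, the 7 venous ones 0.09, -0.01 and -0.05, and the 7 lymphatic ones 0.11, 0.10 and -0.14.

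Mural cells, matrix and fibroblasts were examined next. The 11 pericyte markers had a median of 0.11, which was 0.19 without the doubted library and -0.02 within set 2. Pdgfrb, the receptor that tethers pericytes to endothelium, gave 8.48 and 8.36 in WT_VEGFB, against 7.91, 8.14 and 8.39 in VEGFR1del_Scramble, a difference of 0.27 (0.39 without the doubted library, 0.03 within set 2). The 8 smooth muscle markers had a median of -0.06, -0.01 and -0.24. Their one member at an unadjusted p under 0.05 was Acta2, smooth muscle actin, with 12.66 and 12.37 in WT_VEGFB, against 13.31, 12.93 and 13.20 in VEGFR1del_Scramble and 12.58, 12.66 and 12.79 in WT_Scramble. Its difference was -0.63, -0.60 without the doubted library and -0.68 within set 2, so that the doubted library stood with the other VEGFR1del_Scramble arrays. The limma adjusted p was 0.936.

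The 15 basement membrane genes had a median of 0.22, with 2 higher at an unadjusted p under 0.05 (2.61% of all genes). Without the doubted library the median was 0.31, with 8 higher at that p (4.41% of all genes), and it was 0.00 within set 2. Sparc, a collagen-binding matrix protein, gave 12.18 and 12.34 in WT_VEGFB, against 11.89, 11.74 and 12.05 in VEGFR1del_Scramble and 11.17, 11.18 and 11.34 in WT_Scramble, and its difference was 0.37 (0.45 and 0.21). Col4a1, a chain of the basement membrane collagen, gave 12.80 and 12.87 in WT_VEGFB, against 12.43, 12.41 and 12.96 in VEGFR1del_Scramble, with 0.24, 0.42 and -0.12. The 17 genes of interstitial matrix and its crosslinkers had a median of 0.33, with 15 above 0 and 1 higher at an unadjusted p under 0.05 (2.61% of all genes), and the median was 0.36 without the doubted library and 0.05 within set 2. That gene was Col6a1, with 10.52 and 10.58 in WT_VEGFB, against 10.02, 10.13 and 10.39 in VEGFR1del_Scramble, a difference of 0.37 (0.47 and 0.16). The 12 fibroblast markers had a median of 0.10, 0.10 and 0.06.

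**Figure D4:**
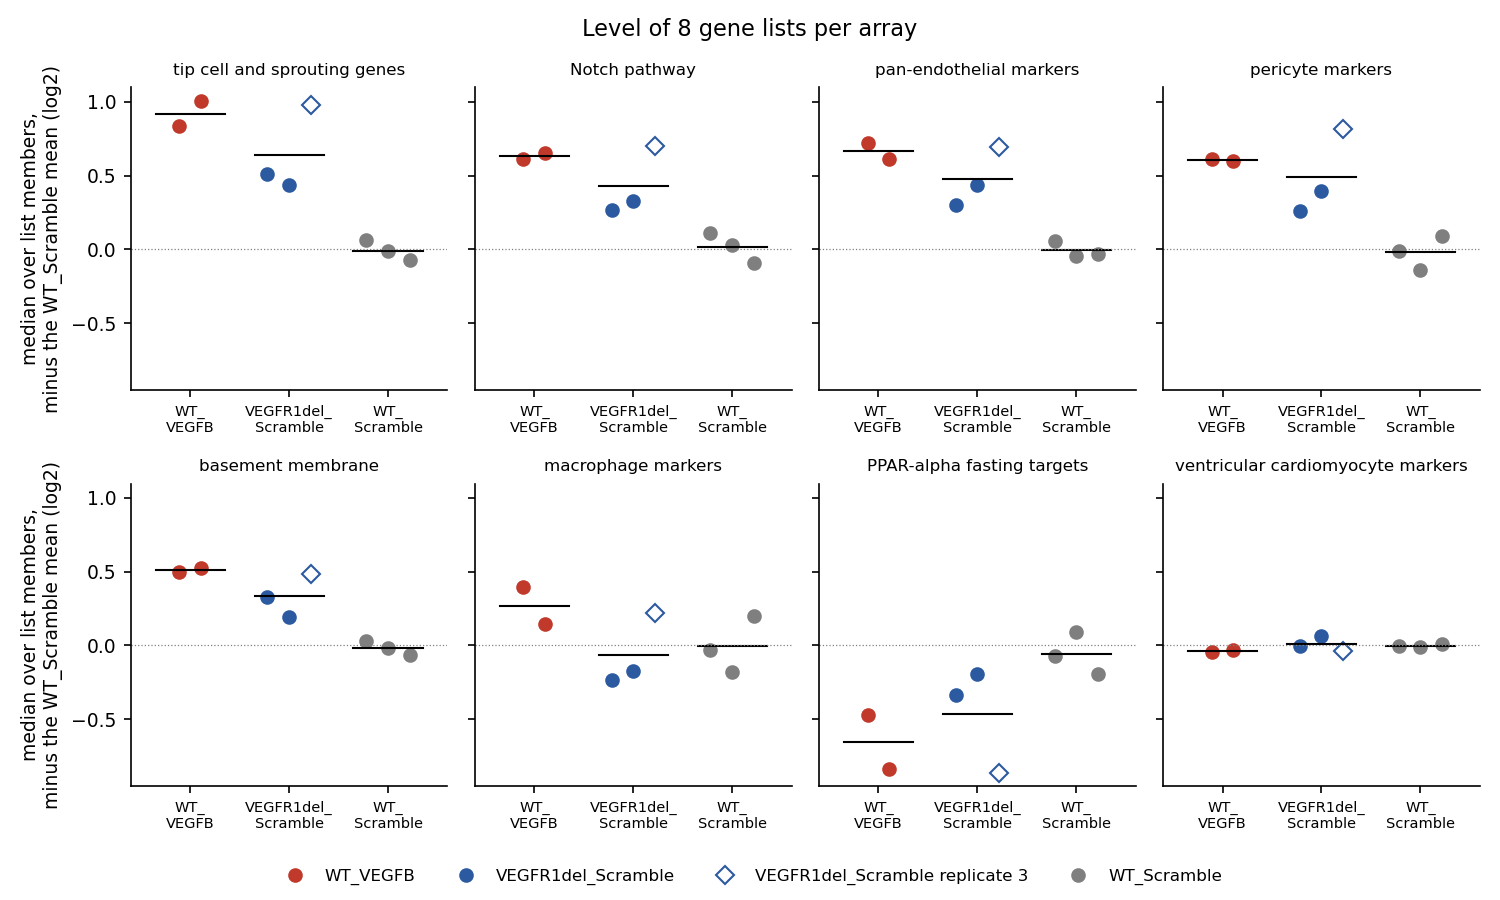
Median over the tested members of 8 gene lists, minus each member's WT_Scramble mean (log2, y axis), on each array of WT_VEGFB, VEGFR1del_Scramble and WT_Scramble; bars are group means and the open diamond is the doubted library. For tip cell genes it stands at 0.98, beside 0.83 and 1.00 in WT_VEGFB, while VEGFR1del_Scramble replicates 1 and 2 stand at 0.51 and 0.44.

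Among the lists of fatty acid metabolism, that of targets of peroxisome proliferator-activated receptor alpha (PPAR-alpha) leaned lower in WT_VEGFB and followed the same split. PPAR-alpha switches on fat burning in the fasted heart, and 13 of its targets and cofactors had a median of -0.20, with 2 above 0. The median was -0.38 without the doubted library, with 5 at an unadjusted p under 0.05 and a lower value (3.32% of all genes), and 0.00 within set 2. The list's level was -0.47 and -0.83 in WT_VEGFB, against -0.34, -0.19 and -0.86 in VEGFR1del_Scramble. Acot1, a thioesterase that releases fatty acids from coenzyme A, gave 10.20 and 9.07 in WT_VEGFB, against 10.55, 10.87 and 9.83 in VEGFR1del_Scramble and 10.90, 11.43 and 10.87 in WT_Scramble. The WT_VEGFB arrays themselves lay far apart, and the difference was -0.78 (-1.55 to -0.01), -1.07 and -0.19. Ppargc1a, the coactivator of mitochondrial biogenesis, gave 7.99 and 7.82 in WT_VEGFB, against 8.55, 8.07 and 8.12 in VEGFR1del_Scramble and 8.63, 8.76 and 8.63 in WT_Scramble. It fell in WT_VEGFB against the control (log2 -0.77, limma adjusted p = 0.0293), and its direct difference was -0.34 (-0.68 to 0.00), -0.40 and -0.21.

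The enzymes that carry out the oxidation lay nearer 0. The 19 genes of mitochondrial fatty acid oxidation had a median of -0.07, which was -0.16 without the doubted library, with 0 of 19 above 0, and 0.11 within set 2, with 15 of 19 above 0. The direction was thus the opposite against the doubted library alone. The 14 genes of lipoprotein lipase and fatty acid uptake had a median of -0.03, -0.05 without the doubted library and -0.02 within set 2. The 27 respiratory chain subunits had a median of -0.04, -0.02 and -0.02, the 12 genes of the tricarboxylic acid cycle 0.04, -0.02 and 0.03, and the 19 of glycolysis 0.01, 0.02 and 0.01. The 16 targets of hypoxia-inducible factor had 0.02, 0.10 and -0.10.

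In the contractile cells, the 12 ventricular cardiomyocyte markers had differences from -0.09 to 0.07 with a median of -0.03, which was -0.04 without the doubted library and -0.01 within set 2. The 11 fetal and hypertrophic genes had a median of 0.07, 0.14 and -0.06. The 16 cardiac ion channels had a similar median in all 3 readings, -0.19 with all arrays, -0.21 without the doubted library and -0.18 within set 2, although a single member reached an unadjusted p under 0.05 (2.61% of all genes with a lower value). That member was Kcnj11, a subunit of the cardiac ATP-sensitive potassium channel, with 6.17 and 6.24 in WT_VEGFB, against 6.52, 6.45 and 6.75 in VEGFR1del_Scramble and 6.79, 7.03 and 6.55 in WT_Scramble. Its difference was -0.36 (-0.69 to -0.04), -0.28 and -0.54, with a limma adjusted p of 0.945. Kcnk3, a background potassium channel, differed by -0.23, -0.29 and -0.10.

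The macrophage and neutrophil markers that passed the detection filter leaned higher in WT_VEGFB with all arrays. The 7 T and NK cell markers tested had a median of 0.08, 0.20 without the doubted library and 0.06 within set 2. Of 10 such markers with a probe, 1 was detected on all 5 arrays and 4 on none, so little is read of these cells. All 10 macrophage markers tested had a difference above 0 (median 0.39, from 0.14 to 0.59; 50.5% of all genes were above 0), 1 of them at an unadjusted p under 0.05 (2.61% of all genes). The median was 0.48 without the doubted library, with 4 higher at that p (4.41% of all genes), and -0.03 within set 2. Their level was 0.39 and 0.14 in WT_VEGFB, against -0.23, -0.17 and 0.22 in VEGFR1del_Scramble and -0.03, -0.18 and 0.20 in WT_Scramble, so that the control spanned most of the range. Adgre1, which encodes a surface protein typical of mouse macrophages, gave 6.48 and 6.41 in WT_VEGFB, against 5.94, 5.40 and 6.23 in VEGFR1del_Scramble and 6.32, 5.78 and 6.24 in WT_Scramble, a difference of 0.59 (0.06 to 1.12), 0.78 without the doubted library and 0.22 within set 2.

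Of the neutrophil markers, 5 were tested, with a median of 0.59, 0.60 and 0.44, and 3 were higher at an unadjusted p under 0.05 (2.61% of all genes). S100a9, a subunit of calprotectin, gave 5.87 and 5.11 in WT_VEGFB, against 4.79, 4.62 and 4.86 in VEGFR1del_Scramble and 4.36, 4.65 and 4.72 in WT_Scramble, where it was not detected on any VEGFR1del_Scramble or WT_Scramble array. It was at least 1.49-fold higher in WT_VEGFB. Il1b, an inflammatory cytokine, gave 5.04 and 5.17 in WT_VEGFB, against 4.66, 4.35 and 4.54 in VEGFR1del_Scramble. Like S100a9 it was not detected in VEGFR1del_Scramble, and it was at least 1.14-fold higher in WT_VEGFB. Probes entered the tests if they were detected on 2 or more arrays. S100a9 and Il1b were each detected on 2 of 2 WT_VEGFB arrays, so those arrays alone sufficed for them to pass. The list's median and its count of 3 thus describe the markers that passed this filter, not neutrophil markers as a class. S100a8, the partner of S100a9, gave 6.56 and 5.83 in WT_VEGFB, against 5.47, 4.88 and 5.75 in VEGFR1del_Scramble and 4.78, 5.34 and 6.02 in WT_Scramble. These levels are near background, 2 of 7 neutrophil markers with a probe were detected on none of the 5 arrays, and none passed the adjusted threshold (limma adjusted p = 0.927 to 0.945 for the 3). The 15 antigen presentation genes had a median of 0.21, 0.31 and 0.12, and the 21 interferon response genes 0.11, 0.16 and 0.02. The part of leukocyte numbers in the other lists was not tested.

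Stress and clock genes varied between single hearts. The 15 immediate early genes had a median of 0.22, 0.44 without the doubted library and -0.36 within set 2, and their level was -0.17 and 0.75 in WT_VEGFB, against -0.05, -0.07 and 0.64 in VEGFR1del_Scramble. Egr2, a member, gave 4.80 and 6.14 in WT_VEGFB, against 4.73, 4.58 and 5.72 in VEGFR1del_Scramble. One array of each group was thus high. The 13 circadian clock genes had a median of 0.06, -0.20 and 0.52. Dbp, a clock output factor, gave 12.44 and 12.04 in WT_VEGFB, against 12.15, 12.71 and 10.60 in VEGFR1del_Scramble and 11.54, 11.92 and 11.27 in WT_Scramble, with differences of 0.41, -0.20 and 1.64. For this gene the doubted library stood below all other arrays. The hour of dissection is not given in the sources used here. The 16 genes of the unfolded protein response and ER chaperones had a median of 0.22, 0.34 and 0.01. Sdf2l1, an ER chaperone component, gave 6.96 and 6.02 in WT_VEGFB, against 5.82, 5.50 and 6.28 in VEGFR1del_Scramble, a difference of 0.62 (0.83 and 0.21).

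**Figure D5:**
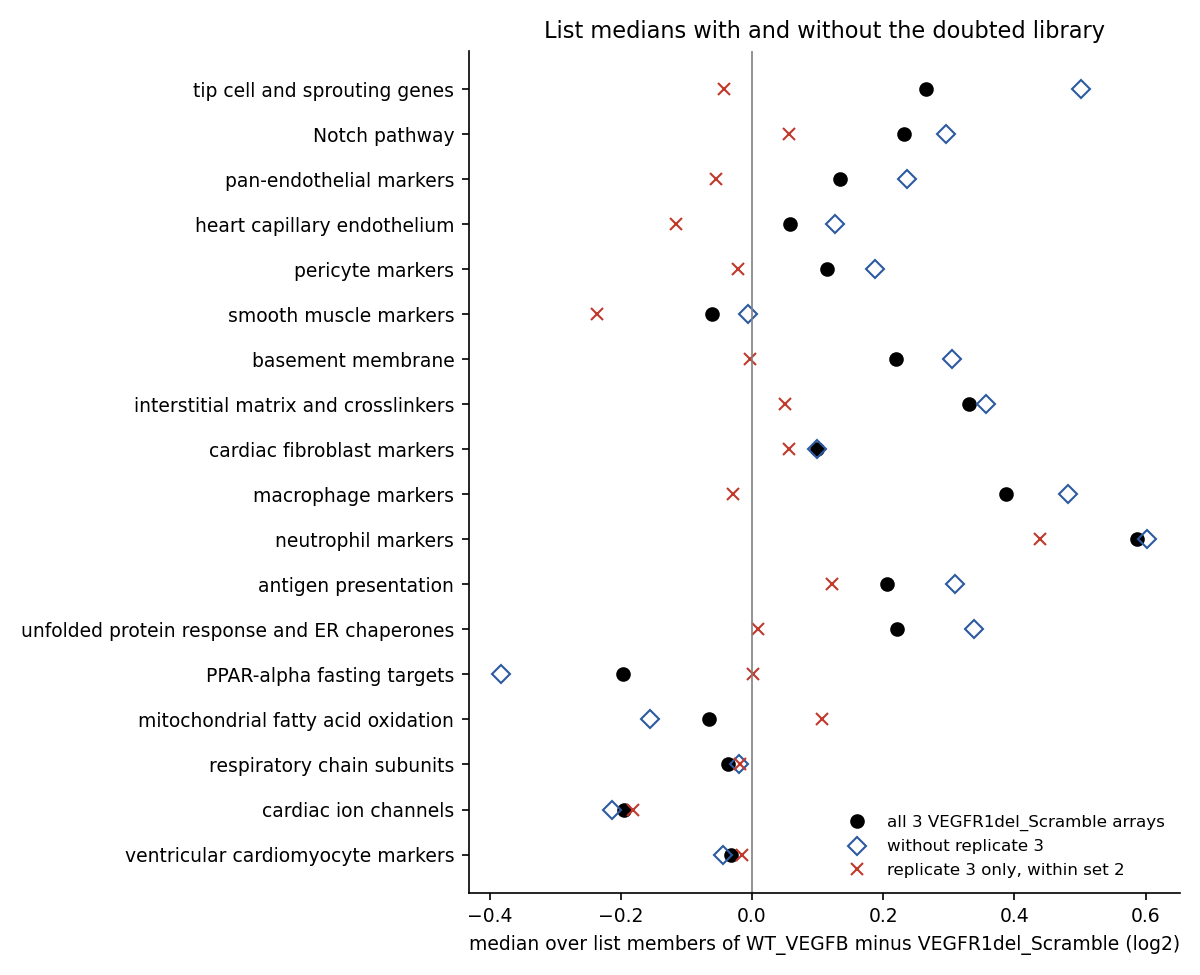
Median over list members of WT_VEGFB minus VEGFR1del_Scramble in log2 (x axis) for 18 gene lists, with all arrays (filled circles), without the doubted library (open diamonds) and against the doubted library within set 2 (crosses). For tip cell genes they stand at 0.27, 0.50 and -0.04, and for PPAR-alpha targets at -0.20, -0.38 and 0.00.

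The genes of smallest p with all arrays were mostly dim, and few belonged to the lists above. Gp5 and Mpig6b, which encode a platelet glycoprotein and a platelet and megakaryocyte receptor, headed those higher in WT_VEGFB. Mpig6b gave 5.36 and 5.57 in WT_VEGFB, against 4.98, 4.87 and 4.80 in VEGFR1del_Scramble and 4.83, 5.13 and 4.86 in WT_Scramble, a difference of 0.58 (0.31 to 0.85, limma adjusted p = 0.923), with 0.55 without the doubted library and 0.66 within set 2. Gp5 gave 5.10 and 5.27 in WT_VEGFB, against 4.65 on each of the 3 VEGFR1del_Scramble arrays, where it was not detected, so that it was at least 1.21-fold higher in WT_VEGFB. Il34, a ligand of the macrophage receptor Csf1r, gave 5.83 and 5.56 in WT_VEGFB, against 5.07, 4.77 and 5.20 in VEGFR1del_Scramble and 4.67, 4.63 and 4.44 in WT_Scramble, a difference of 0.68 (0.78 and 0.50). Adamtsl2, a microfibril-associated matrix protein, gave 6.30 and 7.01 in WT_VEGFB, against 5.87, 5.57 and 5.87 in VEGFR1del_Scramble, a difference of 0.88 (0.94 and 0.79).

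Among those lower in WT_VEGFB, Ccdc141 gave 5.38 and 5.43 in WT_VEGFB, against 6.75, 6.08 and 6.13 in VEGFR1del_Scramble and 6.56, 6.78 and 6.53 in WT_Scramble. It fell in WT_VEGFB against the control (log2 -1.22, limma adjusted p = 0.0169). The direct difference was -0.92 (-1.36 to -0.47, limma adjusted p = 0.923), -1.01 without the doubted library and -0.72 within set 2. Csnk2a1, the catalytic subunit of casein kinase 2, gave 6.04 and 5.92 in WT_VEGFB, against 6.81, 6.54 and 6.49 in VEGFR1del_Scramble and 6.90, 6.84 and 6.81 in WT_Scramble, with -0.63, -0.69 and -0.51. Cnp, an enzyme known from myelin, gave 5.44 and 5.74 in WT_VEGFB, against 6.20, 6.22 and 6.20 in VEGFR1del_Scramble and 6.33, 6.30 and 6.31 in WT_Scramble, with -0.62, -0.63 and -0.62. Vrk2, a serine/threonine kinase, gave 5.63 and 5.70 in WT_VEGFB, against 6.17, 6.31 and 6.21 in VEGFR1del_Scramble, with -0.56, -0.58 and -0.54. A small p over all arrays favours genes in which the 3 VEGFR1del_Scramble arrays lie on 1 side, and in these 4 all 3 lay above both WT_VEGFB arrays.

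Other genes had their smallest p without the doubted library. Ednrb, the endothelin B receptor, gave 10.36 and 10.46 in WT_VEGFB, against 9.46, 9.71 and 10.74 in VEGFR1del_Scramble and 9.25, 9.16 and 8.94 in WT_Scramble, so that its difference was 0.44 with all arrays, 0.83 without that library and -0.33 within set 2. Cbx7, a Polycomb protein, gave 6.75 and 6.78 in WT_VEGFB, against 7.66, 7.71 and 6.73 in VEGFR1del_Scramble and 7.27, 6.86 and 6.94 in WT_Scramble, with -0.60, -0.92 and 0.04. Dip2c gave 6.65 and 6.61 in WT_VEGFB, against 6.06, 6.00 and 6.82 in VEGFR1del_Scramble and 7.00, 6.93 and 7.04 in WT_Scramble, with 0.33, 0.60 and -0.19. It passed as lower in VEGFR1del_Scramble than in WT_Scramble without the doubted library (log2 -0.96, limma adjusted p = 0.00269). E4f1, a transcriptional regulator, gave 6.24 and 6.34 in WT_VEGFB, against 5.22, 5.41 and 6.06 in VEGFR1del_Scramble and 6.15, 5.99 and 6.42 in WT_Scramble, with 0.72, 0.97 and 0.23. In the genes printed here, the doubted library lay nearer to both WT_VEGFB arrays than VEGFR1del_Scramble replicates 1 and 2 did. It took no part in the choice of genes, while the choice favoured a large distance of those replicates from WT_VEGFB. The reading therefore cannot place the doubted library. In Ccdc141, given above and also among the smallest p on 11 arrays, the doubted library lay farther from WT_VEGFB than replicate 2 did. That library also shares set 2 with the WT_VEGFB arrays.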

How the data were processed

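Total RNA of whole mouse hearts was turned into biotinylated cRNA and read on Illumina bead arrays, 1 per heart, per the labels' protocols. The authors deposited non-normalized signal intensity for 45281 probes, and per the file headers each signal has its own detection p-value. They also deposited a table of log2 values, used as an alternative; how it was made is not given in the sources used here, and columns that share the same sorted values showed quantile normalization in 3 sets of arrays.

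The signal intensities were background-corrected and quantile-normalized with neqc of limma 3.58.1 in R 4.3.3, with an offset of 16. Probes with a detection p under 0.05 on 2 or more arrays were kept, 20312 of them with 12 arrays and 20144 with 11. Several probes of a gene were reduced to the brightest on average, and probes without a symbol kept their ID. Of all probes, 34885 had 1 symbol in the platform annotation, 18 had several and 10378 had none. The tests covered 14240 genes, 11009 of them with a symbol, on 12 arrays and 14116 on 11.

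All 4 groups entered lmFit and eBayes with their means as coefficients. P-values were two-sided, and Benjamini-Hochberg adjustment ran over every gene of a contrast, with 0.05 as the threshold. Titles number the hearts within a group, and the number of arrays limits the precision. A fold written "at least" sets the detected group's mean against the other group's mean of, per array, the higher of the lowest detected signal and the probe's own. Lists carry no test; 43 of 46 had tested genes, and those for adipocyte, mesothelium and lung had none.

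The rule for named genes, 253 in all, took the VEGF ligands and receptors, up to 12 genes a direction in each fit (called ones whose groups do not overlap, then those of smallest p), up to 4 members of smallest p per list and fit, and called probes without a symbol. Genes called in VEGFR1del_Scramble against WT_Scramble were added after their values were seen, and the text prints a part of the 253. Members, lists and tests were chosen with earlier results of these data known.

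The fits were tested on simulated data with 200 changed genes, independent noise and no sets. On 11 arrays and 14116 genes they recovered 83.6% of genes changed by 1 on the log2 scale and 8.96% of those changed by 0.5. RefSeq promoter windows were matched for 6 of the 8 genes called in VEGFR1del_Scramble. Alternatives covered background, offset, scaling, filter, probe choice, arrays in the fit, weights, variance model, replicate block, normalization sets and each array left out. Plots used matplotlib 3.10.9 under Python 3.11.15.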

Additional observations from a re-analysis of the deposited data

How the results depend on the processing

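The count of 0 called genes between WT_VEGFB and VEGFR1del_Scramble held under every alternative run on 12 arrays, except that it was 2 without VEGFR1del_Scramble replicate 3 (range 0 to 2 over each array of the compared groups left out). At an unadjusted p under 0.05 there were 1625 genes with median scaling, 1554 of them higher, against 744 and 372 with quantile normalization, and the authors' table gave 771, 619 of them higher. Without the doubted library the count of 2 was 6 with median scaling (5 higher), 4 with every probe tested on its own, which added the second Flt1 probe and a Mest probe, 7 with a variance trend and robust eBayes, and 15 (14 higher) on the authors' table. Stc1 was among the added calls in all of these but the test of every probe, and Ccn5 and Ednrb with the variance trend and on the authors' table, which also added Nrp1, Nos3 and Cd93. The count stayed at 2 over each array left out. The cause of these changes was not tested. Flt1 and ILMN_2476405 were among the calls each time.

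For WT_VEGFB against WT_Scramble the count of 284 was 450 without background correction, 439 with an offset of 50, 553 with median scaling, 444 with array weights, 491 with the variance trend, 547 on the authors' table and 3 with the set as a block, and it ran from 4 to 397 over arrays left out. For VEGFR1del_Scramble against WT_Scramble the count of 8 was 97 without background correction, 107 with an offset of 50, 44 with probes detected on every array of a compared group, 13 with every probe, 194 with the variance trend, 95 on the authors' table and 5 with the set as a block. It ran from 9 to 21 over arrays left out. WT_Scramble arrays were not left out.

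Same-numbered arrays of WT_VEGFB and VEGFR1del_Scramble deviated from their group means with correlations over genes of 0.05 and -0.04, so no shared deviation was seen. The deviations of the 2 WT_VEGFB arrays mirror each other, and the compared arrays lay in different sets. These correlations therefore do not show that the hearts were unpaired. With the replicate block the direct count was 0 with all arrays and 2 without the doubted library, and the counts against WT_Scramble were 275 and 7. With the set as a block or within set 2, 76 of 253 named genes took the other sign, with 0 called genes on 12 arrays that could reverse. The genes called on 11 arrays had other signs within set 2, Flt1 at -0.19 against 3.04 and ILMN_2476405 at 0.13 against -4.27. On 11 arrays the set could not enter as a block for the direct difference, since each group lay in 1 set.

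At 2 and 3 hearts, differences of 0.5 on the log2 scale were mostly below what the fit recovers in simulated arrays, and probes near background, such as those of Kdr and Pgf, limit what is read of those genes.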

Other observations

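Erdr1 belongs to none of the lists and was chosen after its values were seen. Of the genes with a symbol it had the largest difference by size on 12 arrays. WT_VEGFB averaged 6.96 ± 0.99 (SD, n = 2), VEGFR1del_Scramble 9.06 ± 0.37 (SD, n = 3) and WT_Scramble 7.26 ± 1.89 (SD, n = 3), all in log2 signal. The difference of -2.10, or -2.05 without VEGFR1del_Scramble replicate 3, did not pass (limma adjusted p = 0.927 and 0.603). The SD of the control hearts alone, 1.89, was close to the size of that difference.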
